A study of Arabidopsis thaliana with 24 samples.

Results

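GSTU20, GSTU25 and AT2G21640 are 3 oxidative stress genes of Arabidopsis thaliana. They are 3 of 13286 genes that a probe set named alone and that matched the gene table. Each was measured by 1 probe set, found through the platform table that links probe sets to genes, out of 22746 probe sets other than controls. The 3 genes were chosen by their levels in these same arrays, so their values are given as a description and carry no test. The probe sets of GSTU20 (AT1G78370), GSTU25 (AT1G17180) and AT2G21640 all passed the filter on low signal, which 18751 probe sets passed.

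Whole seedlings 7 days old were measured on Affymetrix ATH1 arrays, 3 per group, which the labels call independent biological replicates. The groups were csn3-1, csn4-1, the line labelled csn5 (csn5a-2 csn5b) and Col wild type (WT), each grown in light, and the same genotypes grown in darkness. The mutated genes encode COP9 signalosome subunits. The mutant lines are called csn3, csn4 and csn5-labelled here, and their equally weighted mean is called the csn mean.

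The COP9 signalosome is a nuclear protein complex that removes the ubiquitin-like protein NEDD8 from cullins, the scaffolds of a large class of ubiquitin ligases, and plants without it look light-grown even in darkness. Glutathione transferases join the tripeptide glutathione to reactive compounds, and the plant-specific tau class is known for its part in the detoxification of herbicides and products of lipid oxidation. GSTU20 is also known as a partner of FIN219 (JAR1), an enzyme that joins jasmonate to isoleucine and takes part in far-red light signalling. GSTU25 is known to be induced by foreign compounds and to act on the explosive TNT. AT2G21640 has served as a marker transcript of oxidative stress.

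Values are MAS5 signals as the authors deposited them, scaled here so that the 2% trimmed mean of each array is 500. A log2 difference is the difference of mean log2(signal + 50), which understates the change of dim genes, and its error is the standard error of the fit. "Passed" means a limma adjusted p under 0.05, by the Benjamini-Hochberg method over all tested probe sets, and a log2 difference whose size reached 1. The median signal ran from 178.4 to 246.5 over the 24 arrays, and the Pearson correlation within a group from 0.884 to 0.988. The ratio of 3′ to 5′ signal of the GAPDH control is a sign of RNA integrity or labelling. It was 3.31 to 130.12 in csn arrays and 2.27 to 19.68 in WT arrays, and was above 10 in 8 arrays. Those 8 were of csn3 in darkness, csn4 in both conditions and WT in darkness, and none was csn5-labelled. The source label of the 6 arrays of csn4 and WT in light does not name the growth condition. The label of the other 18 does, and the WT arrays in light are described as the wild type of csn4-1. The csn3 array in darkness numbered 3 here has a title that repeats replicate 1, and its number was assigned here. That title is written in another form than those of the other csn3 arrays in darkness, while its description names csn3-1. A probe set is called a gene's own here when the platform table links it to that gene alone and it matched the gene table. Of the mutated genes only CSN5B had a probe set found in this way. Probe sets linked to several genes or left unmatched were not searched for the others. The CSN5B signal was higher in csn5-labelled arrays (651.2 to 1897.1) than in any other array (110 to 332). The position of that probe set relative to the mutations is unknown.

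GSTU20 was bright on 3 arrays of 24, those of WT seedlings grown in light. In light its signal was 161.1, 169.3 and 194.9 on the csn3 arrays, 143.1, 142.5 and 107.8 on the csn4 arrays and 74.9, 135.1 and 208.7 on the csn5-labelled arrays, against 3248.4, 3681.4 and 3592.7 in WT. Every csn array in light lay below every WT array in light, with a wide gap between them. In darkness it was 95.3, 42 and 192 on the csn3 arrays, 40.4, 134.4 and 33.9 on the csn4 arrays and 113.2, 286 and 144.4 on the csn5-labelled arrays, against 138.3, 180.4 and 150.2 in WT. There the csn3 and csn5-labelled arrays overlapped those of WT, whereas the csn4 arrays all lay below WT.

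The csn mean of GSTU20 in light was 148.6 against 3507.5 in WT, so that the WT signal was 23.6 times that of the csn mean. The log2 difference from WT in light was -4.19 ± 0.26 for the csn mean, -3.98 ± 0.32 in csn3, -4.30 ± 0.32 in csn4 and -4.29 ± 0.32 in csn5-labelled seedlings. In darkness it was -0.42 ± 0.26 for the csn mean, -0.48 in csn3, -0.88 in csn4 and 0.10 in csn5-labelled seedlings. The csn mean in darkness became 0.25 without the 8 arrays of a GAPDH ratio above 10, a setting chosen after seeing the data. That setting leaves no csn4 array in darkness and of csn3 only the third (192), the highest of its group.

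Light against darkness made a difference for GSTU20 of 4.11 ± 0.32 on the log2 scale in WT, a 22.4-fold higher signal in light. The same difference was 0.60 in csn3, 0.69 in csn4 and -0.28 in csn5-labelled seedlings, each ± 0.32, and in all 3 mutants the light and dark arrays overlapped. With 1 array left out at a time it lay between 0.26 and 0.96 in csn3, between 0.48 and 1.05 in csn4, and between -0.53 and 0.03 in csn5-labelled seedlings, the 0.03 being without the second dark array. In csn3 it was -0.11 without the arrays of a GAPDH ratio above 10, which rests on the third csn3 array alone in darkness. The difference between the light effect of the csn mean and that of WT was -3.77 ± 0.37. The WT and csn4 arrays in light are the 6 arrays of another source label. Label and light therefore cannot be told apart in WT or in csn4, for this or any other gene. The value of -4.30 for csn4 in light, given above, lies within those 6 arrays, whereas csn3 and csn5-labelled seedlings are set against WT arrays of the other label.

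By group mean GSTU20 was ordered WT in light (3507.5 ± 228.8, SD, n = 3), csn5-labelled in darkness (181.2 ± 92.1), csn3 in light (175.1 ± 17.6), WT in darkness (156.3 ± 21.7), csn5-labelled in light (139.6 ± 67), csn4 in light (131.1 ± 20.2), csn3 in darkness (109.8 ± 76) and csn4 in darkness (69.6 ± 56.2). The first group did not overlap the second, and each of the other neighbours in this order overlapped. In 7 groups the probe set ranked in percentiles 11.9 to 59.3 of all probe sets, and on WT arrays in light in percentiles 95.8 to 96.3.

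**Figure D1:**
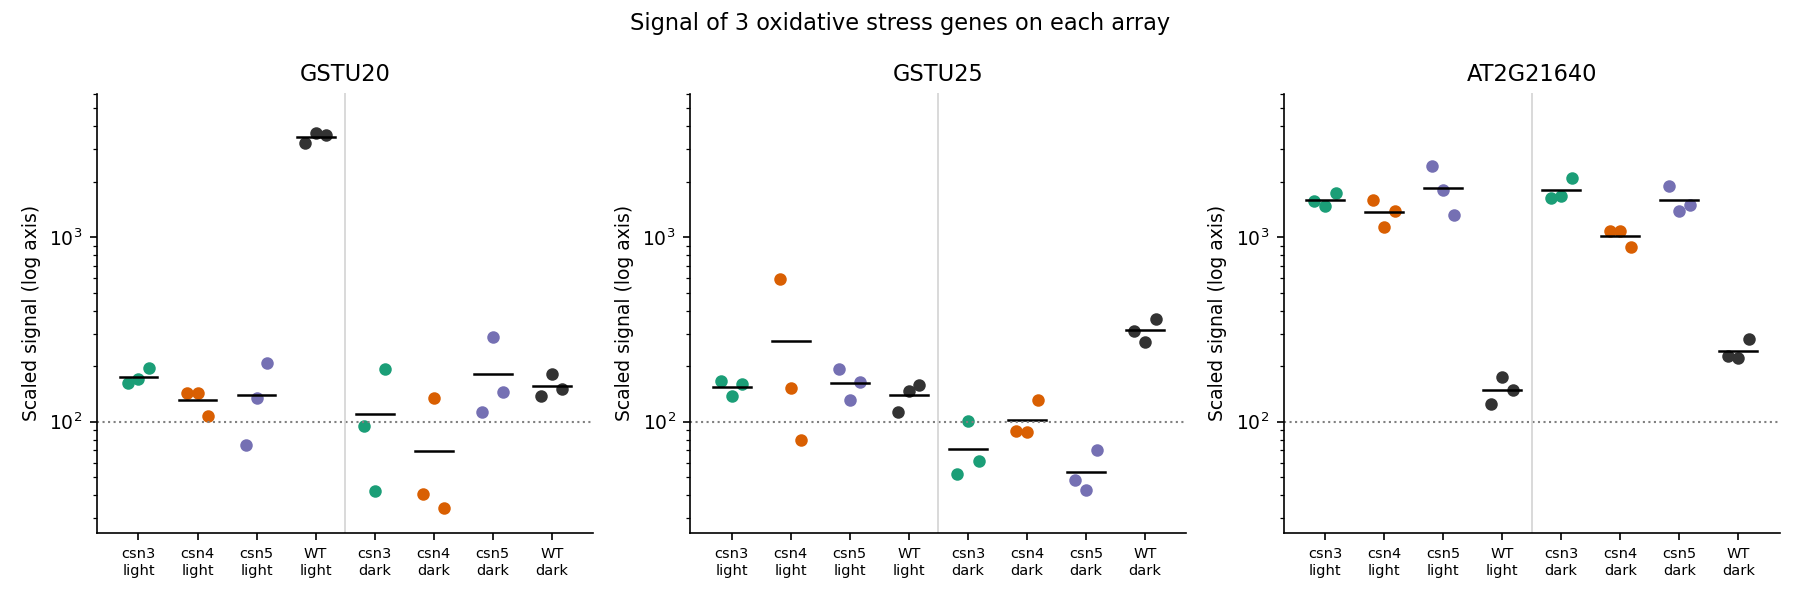
Scaled signal (log axis) of GSTU20, GSTU25 and AT2G21640 on each of 24 arrays, by genotype, with light-grown groups left of dark-grown groups. Points are arrays, black bars are means of 3 arrays, and the dotted line marks a signal of 100. GSTU20 is high in WT in light (3248.4 to 3681.4), GSTU25 is higher in WT than in the mutants in darkness, and AT2G21640 is high in all mutant groups.

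GSTU25 showed the reverse condition: its mutant arrays lay below WT in darkness and overlapped WT in light. In light its signal was 165.7, 138.1 and 159.7 on the csn3 arrays, 592.1, 152.7 and 79.7 on the csn4 arrays and 191.8, 130.3 and 164.9 on the csn5-labelled arrays, against 112.7, 147.5 and 157.3 in WT. One csn4 array stood far above the other 2 of its group. In darkness the signal was 52.2, 101 and 61.1 on the csn3 arrays, 88.6, 87.9 and 131 on the csn4 arrays and 48.1, 42.6 and 70 on the csn5-labelled arrays, against 311.1, 270.4 and 360.4 in WT. No mutant array in darkness reached the lowest WT array.

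The csn mean of GSTU25 in darkness was 75.8 against 313.9 in WT, a WT signal 4.14 times that of the mutants. The log2 difference in darkness was -1.56 ± 0.28 for the csn mean, -1.60 ± 0.35 in csn3, -1.26 ± 0.35 in csn4 and -1.82 ± 0.35 in csn5-labelled seedlings. In light it was 0.24 ± 0.28 for the csn mean and 0.45 ± 0.35 in csn4. Without the first csn4 array in light these 2 values became 0.02 and -0.22. That group also held the widest range of GAPDH ratios, 6.49 to 130.12.

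In WT the GSTU25 signal was lower in light than in darkness, with a log2 difference of -0.94 ± 0.35 and no overlap of arrays. In the mutants the sign was the other way, with differences of 0.77 in csn3, 0.76 in csn4 and 1.03 in csn5-labelled seedlings, and no overlap in csn3 and csn5-labelled seedlings. The csn4 value became 0.10 without the first csn4 array in light. The light effect of the csn mean minus that of WT was 1.80 ± 0.40.

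The order of GSTU25 by group mean was WT in darkness (313.9 ± 45.1, SD, n = 3), csn4 in light (274.8 ± 277.2), csn5-labelled in light (162.3 ± 30.8), csn3 in light (154.5 ± 14.5), WT in light (139.2 ± 23.4), csn4 in darkness (102.5 ± 24.7), csn3 in darkness (71.4 ± 26) and csn5-labelled in darkness (53.6 ± 14.5). Every neighbour in this order overlapped the next. Signals were at least 100 on 16 of 24 arrays for GSTU25 and 19 of 24 for GSTU20, so many values of both genes in dark-grown mutants lie near or below the level used to filter probe sets.

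AT2G21640 was high in every mutant array in both conditions. In light its signal was 1561.9, 1480.7 and 1731.9 on the csn3 arrays, 1590.7, 1132.2 and 1391.1 on the csn4 arrays and 2429.8, 1803.3 and 1315.7 on the csn5-labelled arrays, against 125.4, 173.5 and 148.2 in WT. In darkness it was 1629.6, 1660.1 and 2083.4 on the csn3 arrays, 1085, 1076.7 and 889 on the csn4 arrays and 1900.6, 1392.3 and 1491.7 on the csn5-labelled arrays, against 225.5, 221.8 and 280.6 in WT. The lowest mutant array lay well above the highest WT array in each condition.

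The csn mean of AT2G21640 was 10.8 times the WT signal in light (1604.1 against 149) and 6.05 times in darkness (1467.6 against 242.6). The log2 difference in light was 3.03 ± 0.15 for the csn mean, 3.05 in csn3, 2.83 in csn4 and 3.22 in csn5-labelled seedlings. In darkness it was 2.33 ± 0.15 for the csn mean, 2.65 in csn3, 1.87 in csn4 and 2.48 in csn5-labelled seedlings, with a standard error of 0.19 for each mutant. In darkness the csn4 arrays all lay below those of csn3 and of csn5-labelled seedlings, and csn3 minus csn4 was 0.78 ± 0.19.

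Light and darkness gave smaller differences in AT2G21640 than genotype did. Light minus darkness was -0.16 in csn3, 0.41 in csn4 and 0.18 in csn5-labelled seedlings, and -0.56 ± 0.19 in WT, where the light arrays all lay below the dark ones. The light effect of the csn mean minus that of WT was 0.70 ± 0.22.

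By group mean the order of AT2G21640 was csn5-labelled in light (1849.6 ± 558.5, SD, n = 3), csn3 in darkness (1791 ± 253.6), csn5-labelled in darkness (1594.9 ± 269.4), csn3 in light (1591.5 ± 128.2), csn4 in light (1371.3 ± 229.9), csn4 in darkness (1016.9 ± 110.8), WT in darkness (242.6 ± 32.9) and WT in light (149 ± 24.1). The first 4 groups each overlapped the next in this order, and the arrays of csn4 in light, csn4 in darkness and WT in darkness each lay above all those of the group after them. AT2G21640 also had the smallest spread between arrays of 1 group, with a pooled SD of 0.23 on the log2 scale, against 0.44 for GSTU20 and 0.46 for GSTU25.

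**Figure D2:**
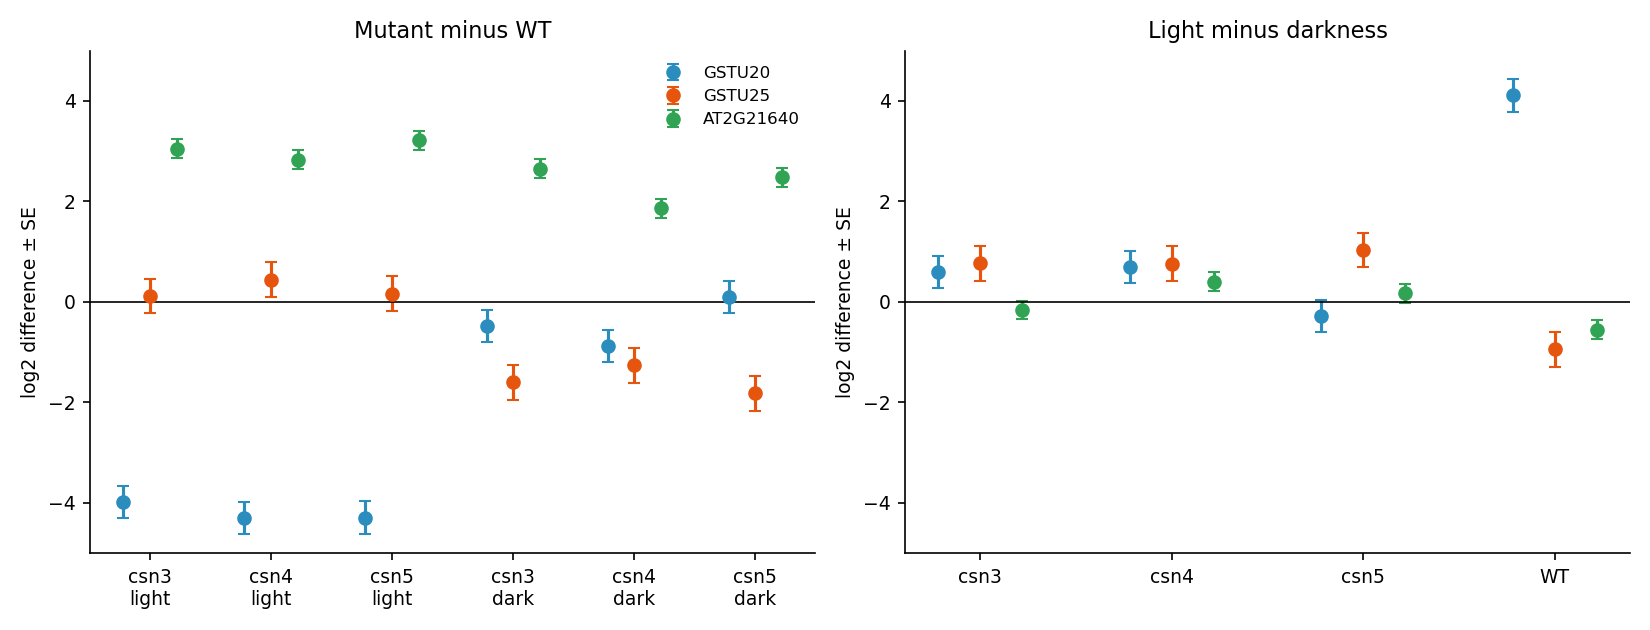
Log2 difference ± SE of GSTU20, GSTU25 and AT2G21640 for each mutant against WT (left, light-grown then dark-grown) and for light against darkness in each genotype (right). GSTU20 lies near -4 in light in all 3 mutants and at 4.11 for light against darkness in WT, and AT2G21640 lies above 1.8 in every mutant.

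Of the 3 genes, 2 passed the threshold in each comparison of a mutant with WT, 1 higher and 1 lower, and since these contrasts chose the genes nothing is read from that count. The share of all tested probe sets that passed was 20.6% for the csn mean in light and 25.2% in darkness. For the single mutants in light it was 20.9% (csn3), 24.1% (csn4) and 21.3% (csn5-labelled), and for the single mutants in darkness 26.2% (csn3), 28.6% (csn4) and 26.0% (csn5-labelled). Light against darkness passed for 1 of the 3 genes in WT, where 19.2% of probe sets passed, and for 0 of the 3 in the mutants, where 0.880% passed in csn3, 3.49% in csn4 and 3.82% in csn5-labelled seedlings. The difference of the light effect between the csn mean and WT passed for 2 of the 3 genes and 19.3% of probe sets. The genes were chosen by their levels in these same groups, so nothing is read from these counts either. The comparisons with WT in a condition share the same 3 WT arrays. Under all settings that keep every array or leave out those of a high GAPDH ratio, the csn mean in light lay between -4.46 and -4.16 on the log2 scale for GSTU20, and for AT2G21640 it lay between 2.90 and 3.28. In darkness it lay between -1.90 and -1.55 for GSTU25 and between 2.25 and 2.63 for AT2G21640.

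The 3 patterns differed from each other. Over the 8 group means of log2 signal, Pearson's r was 0.07 between GSTU20 and GSTU25, -0.72 between GSTU20 and AT2G21640, and -0.47 between GSTU25 and AT2G21640. These coefficients are descriptions over groups that share the same arrays, and those of GSTU20 lean on its high group, WT in light. Within bulk seedlings, fewer cells of a type and less RNA per cell cannot be told apart.

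The genes most like each member were taken as those with the highest r over the 8 group means, among 6790 tested probe sets with 1 gene name that spanned at least 1 on the log2 scale. For GSTU20 they were APS3 (0.986), AT2G33850 (0.977), AT1G21440 (0.974), AT4G19530 (0.973) and AT3G47560 (0.973). AT2G33850 averaged 22.9 to 63.7 in 7 groups and 2105.3 in WT in light, and APS3 averaged 109.8 to 170.7 in the same 7 groups and 548.6 in WT in light. This likeness rests on the 1 high group.

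For GSTU25 the most alike were AT5G57910 (0.959), AT2G24300 (0.958), AT1G23710 (0.957), AT2G01100 (0.947) and AT1G19020 (0.945). AT1G19020 averaged 337.1 to 526.5 in the mutants in darkness, against 2851.8 in WT in darkness. Over the 24 single arrays r was lower for these 5, at 0.508 to 0.835.

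For AT2G21640 they were AT5G54970, AT5G51220 and AT5G15550 (0.995 each), AT3G61340 (0.993) and AT1G18900 (0.992). AT5G51220 averaged 1087.5 to 1378.9 in the mutants in light against 180.8 in WT in light, and 908.7 to 1219.6 in the mutants in darkness against 272 in WT in darkness. AT5G54970 averaged 1660.8 to 2097.9 in the mutants in light against 538.8 in WT in light. Over 24 arrays r was 0.837 to 0.97 for these 5. All 5 had lower means in both WT groups than in any mutant group, and their likeness rests largely on that split.

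The genes that lie beside the members in the gene table gave levels of their own. GSTU20 stands between GSTU21 and GSTU19, with GSTU22 at 2 steps and GSTU23 at 3 steps. GSTU22 averaged 157.1 in WT in light, where GSTU20 was bright, and was bright in WT in darkness (1644.2 to 2555.6), where GSTU20 was dim. GSTU21 stayed dim, at a group mean of 4.4 to 42.9, and GSTU23 averaged 63.2 to 183.7. GSTU25 stands between GSTU24, for which no probe set of its own was found, and GSTU26. Like GSTU25, GSTU26 had its highest group mean in WT in darkness. Beside AT2G21640, AT2G21630 averaged 226.9, 239.8 and 224.1 in csn3, csn4 and csn5-labelled seedlings in light, against 178.7 in WT in light, and 409.1, 371.3 and 298.7 in the same lines in darkness, against 178.3 in WT in darkness.

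Among the tau class, 11 of 28 genes had a probe set of their own, and of the 9 that are not members 7 were tested. For the csn mean against WT, 1 rose, 1 fell and 5 did not pass in light, and 4 of the 7 missed the threshold in darkness, where 1 rose and 2 fell. The share called was 28.6% in light and 42.9% in darkness, against 20.6% and 25.2% of all tested probe sets. GSTU22 fell by 2.60 ± 0.16 on the log2 scale in darkness (304.7 in the csn mean, 2058.9 in WT, limma adjusted p = 3.03e-13). GSTU26 fell by 2.26 ± 0.19 in darkness (176.8 in the csn mean, 1045.6 in WT, limma adjusted p = 5.4e-11). In light neither passed, with differences of -0.14 for GSTU22 and -0.32 for GSTU26.

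GSTU18 was the tau gene that changed in opposite directions. It fell in light by 1.45 ± 0.22 (312.9 in the csn mean, 909 in WT, limma adjusted p = 3.04e-06) and rose in darkness by 1.26 ± 0.22 (470 in the csn mean, 159.9 in WT, limma adjusted p = 1.79e-05). In WT its signal was higher in light than in darkness by 2.19 ± 0.27 (limma adjusted p = 1.51e-07), the direction of GSTU20. GSTU28 rose in light by 1.17 ± 0.22 (196.2 in the csn mean, 57.9 in WT, limma adjusted p = 5.98e-05), a call lost under quantile normalization (0.78), and its difference in darkness was -0.38.

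GSTU16 and GSTU27 passed in neither condition, with differences of -0.21 and 0.11 in light and 0.48 and -0.67 in darkness. The difference of GSTU23 was 0.02 ± 0.30 in light and 0.17 ± 0.30 in darkness. GSTU15 and GSTU21 did not pass the filter on low signal. Tau genes are close in sequence, and probes that bind a near copy as well could not be checked here.

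**Figure D3:**
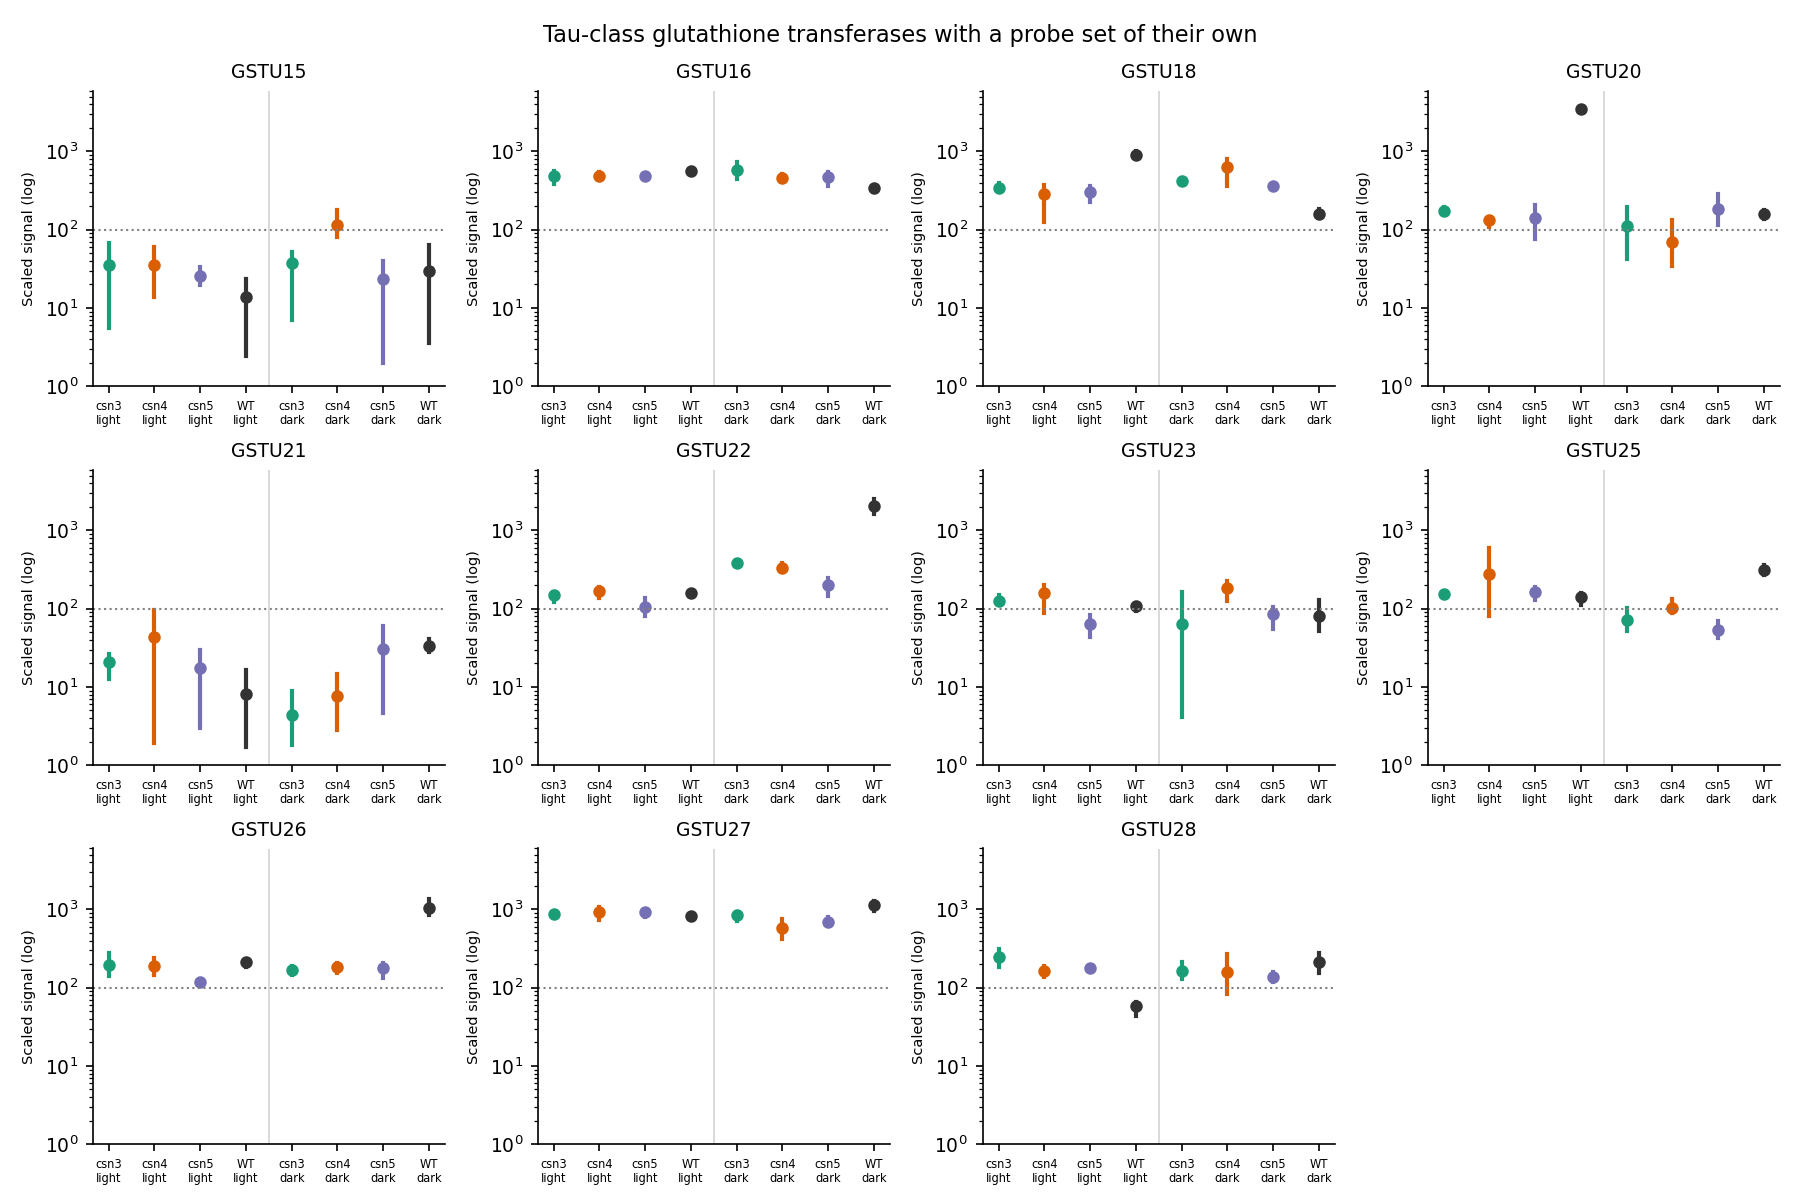
Scaled signal (log axis) of the 11 tau-class glutathione transferases with a probe set of their own, by genotype, with light-grown groups left of dark-grown groups. Points are means of 3 arrays, vertical lines run from the lowest to the highest array, and the dotted line marks a signal of 100. By group mean GSTU20 and GSTU18 are highest in WT in light, and GSTU22, GSTU25 and GSTU26 in WT in darkness. For GSTU25 the highest csn4 array in light (592.1) lies above every WT array in darkness.

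The wider lists of redox and detoxification genes, without the members, held 44 tested genes of 187. In light 15 rose, 7 fell and 22 did not pass (50% called, median log2 difference 0), and 24 missed the threshold in darkness, where 13 rose and 7 fell (45.5% called, median 0.55). Without the second WT array in darkness 13 rose and 11 fell there. Of all tested probe sets 20.6% passed in light and 25.2% in darkness, shares that also apply beside the counts of each list below. Their median log2 difference was 0.18 in both conditions, which quantile normalization moved to 0.03 in light and 0.07 in darkness. The lists were chosen with earlier results of these data known. The GAPDH ratio differed between groups, with no csn5-labelled array above 7.42, and the marker levels described at the end moved with genotype. The part of both in these counts was not tested.

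Other glutathione transferases had 3 tested genes. GSTF4, a phi-class enzyme, fell in light by 1.09 ± 0.32 (limma adjusted p = 0.00573) and in darkness by 2.53 ± 0.32 (limma adjusted p = 1.4e-07), and the call in light was lost without the first csn3 array in light (-0.98). AT1G65820 rose in light by 1.08 ± 0.13 (limma adjusted p = 1.76e-07) and did not pass in darkness (0.35). GSTL3, of the lambda class, did not pass in either condition (-0.48 in light and 0.94 in darkness). In darkness it passed under 5 alternatives, at 1.32 with the GAPDH ratio as a covariate, 1.21 without the 8 arrays of a high ratio, 1.05 without the second csn3 array, 1.08 without the first WT array and 1.09 without the third WT array.

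Of the 5 tested enzymes of the glutathione and ascorbate cycle, 2 rose and 1 fell in light, and 3 rose and 1 fell in darkness. GR1, a glutathione reductase, rose in light by 1.47 ± 0.17 (limma adjusted p = 5.5e-08) and in darkness by 1.35 ± 0.17 (limma adjusted p = 1.56e-07). SAPX, the stromal ascorbate peroxidase of chloroplasts, rose by 1.21 in light (2486.5 in the csn mean, 1029 in WT) and rose in darkness too (1628.2 in the csn mean, 538 in WT, limma adjusted p = 1.15e-09). TAPX, the thylakoid ascorbate peroxidase, fell in light by 1.96 ± 0.18 (372 in the csn mean, 1542.4 in WT, limma adjusted p = 1.1e-09), and its difference in darkness was 0.64, which did not pass. GR, a second glutathione reductase, rose in darkness by 1.29 and did not pass in light (-0.18). ATMDAR2, a monodehydroascorbate reductase, fell in darkness by 1.04, a call lost under quantile normalization (-0.95), with the GAPDH ratio as a covariate (-0.96), without the 8 arrays of a high ratio (-0.97), and without the third WT array in darkness (-0.91) or the third csn4 array in darkness (-0.998).

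The list of peroxide scavenging genes held 2 tested loci. AT3G52960 rose in darkness by 1.64 ± 0.16 (limma adjusted p = 1.06e-09) and did not pass in light (-0.53). AT3G11630 fell in light by 1.03 ± 0.19 (limma adjusted p = 7.2e-05) and rose in darkness by 1.43 ± 0.19 (limma adjusted p = 5.36e-07). The call in light was lost with the GAPDH ratio as a covariate (-0.69), without the 8 arrays of a high ratio (-0.86), without the second csn4 array in light (-0.96) and without the third WT array in light (-0.99).

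Of 11 tested thioredoxins, reductases and glutaredoxins, 1 rose and 2 fell in light, and 3 rose and 2 fell in darkness, where both GAPDH settings made 5 rise, with TRXF2 and THX added. TRXF2, a thioredoxin of chloroplasts, fell in light by 2.16 ± 0.18 (400.2 in the csn mean, 1935.4 in WT, limma adjusted p = 1.01e-10). THX, thioredoxin x, fell in light by 1.25, which became -0.95 with the GAPDH ratio as a covariate and then no longer passed. GRX480, a glutaredoxin known from jasmonate and salicylate signalling, rose in light by 1.47 ± 0.24 (limma adjusted p = 9.62e-06). In darkness ty2 (thioredoxin y2) rose by 2.27 ± 0.17 (limma adjusted p = 4.66e-12), NTRC, a thioredoxin reductase of chloroplasts, by 1.27, and ATHM2, thioredoxin m2, by 1.08. In darkness TY1, thioredoxin y1, fell by 1.10 and GRXC1, a glutaredoxin, fell by 1.13. Single arrays decided 3 of these calls: ATHM2 became 0.996 without the third csn3 array in darkness, TY1 -0.99 without the first csn4 array in darkness and GRXC1 -0.96 without the third WT array in darkness, each then short of the threshold.

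Among 9 tested genes of xenobiotic detoxification, 4 rose and 1 fell in light, and 4 rose and 1 fell in darkness. In darkness the median of the 9 was -0.92, below 0 although more genes passed as higher, and all 9 had an unadjusted p under 0.05. The count that fell in darkness moved with the setting: it was 5 without the second WT array, 4 without the first csn5-labelled array, with an offset of 16 or without the 8 arrays of a high GAPDH ratio, 3 under quantile normalization or without the second csn4 array, and 2 or fewer under the other settings. Taken alone, 1 gene fell in csn3, 3 in csn4 and 4 in csn5-labelled seedlings in darkness. The 4 that rose were AT2G04050, AT2G04070, AER and UGT73C1 in both conditions. AT2G04050 rose by 3.40 ± 0.22 in light (835.1 in the csn mean, 36.5 in WT, limma adjusted p = 5.75e-13) and by 2.87 ± 0.22 in darkness (1252 in the csn mean, 125.9 in WT, limma adjusted p = 1.1e-11). AER, an alkenal reductase that acts on reactive products of lipid oxidation, rose by 1.65 in light and 1.62 in darkness. UGT73C1, a glucosyltransferase, rose by 1.61 in light and 1.91 in darkness. Its WT means were 16.8 in light and 3.5 in darkness, and those of AT2G04070 were 54.5 and 38.1. These lie below the filter level of 100, so the size of the differences depends on the offset of 50. UGT73B1 fell by 1.36 in light and UGT71C1, also a glucosyltransferase, fell by 1.64 in darkness.

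The mitochondrial stress list, to which AT2G21640 belongs, held 6 other tested genes. In light 5 rose and 1 did not pass, with a median of 1.51 for the 6. In darkness 0 of the 6 passed with limma, 4 had an unadjusted p under 0.05, and the median was 0.62. AT2G41730 rose in light by 2.65 ± 0.21 (1906.7 in the csn mean, 243.3 in WT, limma adjusted p = 3.89e-11), with the limit that its probe set, of the _x_at kind, may bind other transcripts. AT5G51440 rose in light by 2.03 ± 0.22 (651.4 in the csn mean, 103.3 in WT, limma adjusted p = 1.47e-08) and AT5G09570 by 1.72 ± 0.29 (limma adjusted p = 1.53e-05).

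NDB2, an alternative NAD(P)H dehydrogenase of mitochondria, rose in light by 1.30 ± 0.23 (limma adjusted p = 3.3e-05). NDB4, its relative, rose by 1.09, a call lost under quantile normalization (0.82), with the GAPDH ratio as a covariate (0.87) and without the 8 arrays of a high ratio (0.81). AT5G64400 had 0.92 in light and 0.63 in darkness. Without the 8 arrays of a high ratio AT5G51440 (1.14) and AT5G64400 (1.17) passed in darkness, so that the count there was 2 of 6. AT2G21640 itself stood at 3.03 in light and 2.33 in darkness, and for the csn mean with all arrays no other gene of this list passed in both conditions. In csn4 alone NDB4 (1.36 in light, 1.04 in darkness) and AT5G09570 (1.72 in light, 1.04 in darkness) passed in both.

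STZ (ZAT10), a zinc finger repressor of stress responses, was the only tested gene of the list on signalling by reactive oxygen species. It rose in light by 1.39 ± 0.15 (limma adjusted p = 2.13e-08) for the csn mean and did not pass in darkness (0.88, limma adjusted p = 2.23e-05), where it passed in csn4 alone (1.06, limma adjusted p = 3.97e-05).

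**Figure D4:**
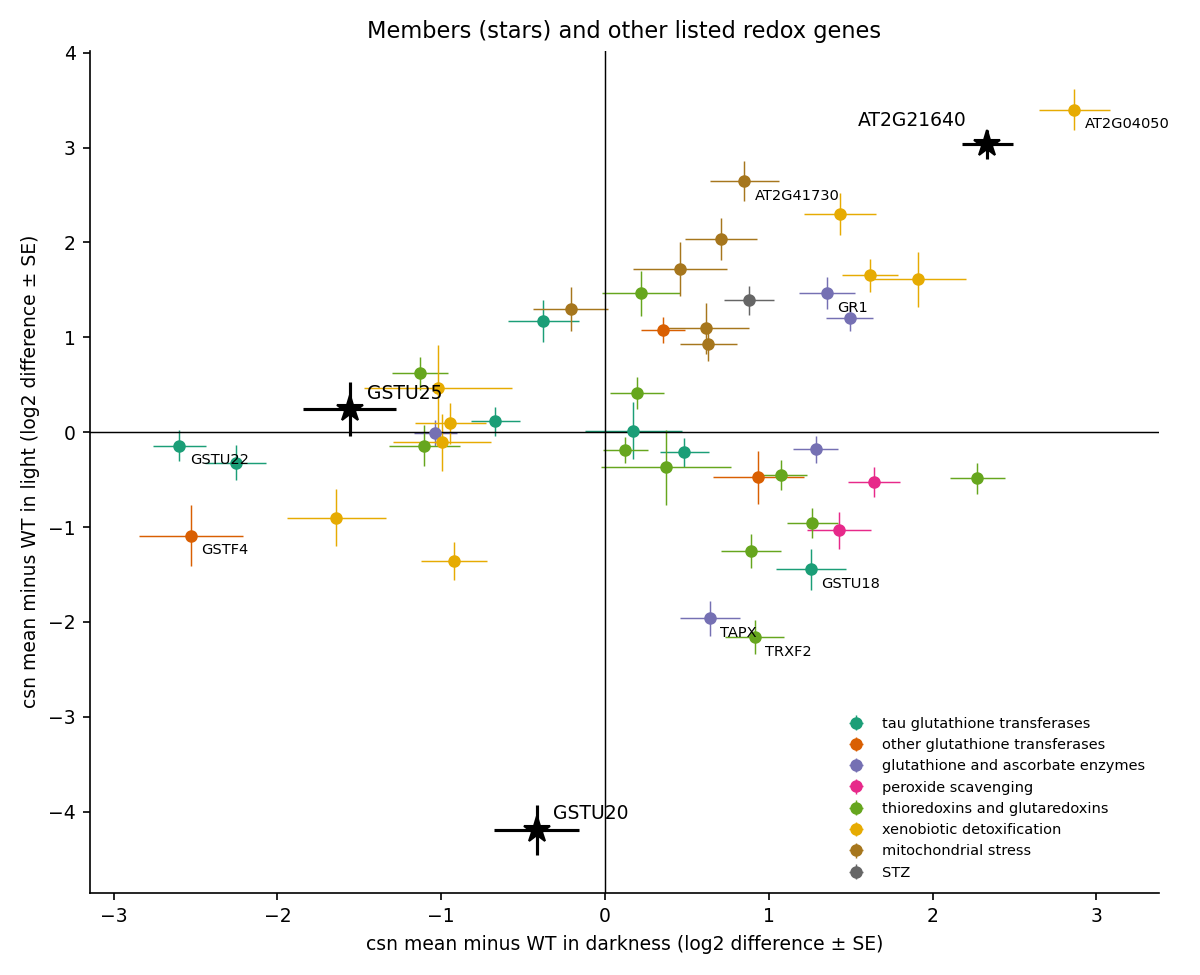
Log2 difference ± SE of the csn mean from WT in darkness (horizontal) and in light (vertical) for the 3 members (stars) and the 44 other tested genes of the redox lists (dots, coloured by list). AT2G21640 lies at 3.03 in light and 2.33 in darkness, GSTU20 at -4.19 in light and -0.42 in darkness, and GSTU25 at 0.24 in light and -1.56 in darkness.

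Light against darkness in WT changed 19 of the 44 listed genes (43.2%), of which 11 were higher and 8 lower in light. Of all tested probe sets 19.2% passed there. TRXF2 was higher by 3.35, TAPX by 2.53 and AT3G11630 by 2.42, and GSTU22 was lower by 3.33 (-3.33 ± 0.20, limma adjusted p = 4.95e-13). Of the same 44 genes 1 passed in csn3 (2.27%), 4 in csn4 (9.09%) and 5 in csn5-labelled seedlings (11.4%). With the root and green tissue markers included, 1 passed in csn3, 5 in csn4 and 5 in csn5-labelled seedlings. The counts with arrays left out, given below, include the markers. Of all tested probe sets 0.880%, 3.49% and 3.82% passed in these lines. In csn3 it was GSTU22 (-1.13). In csn5-labelled seedlings AT5G51440 (2.19), AT2G41730 (1.73), AT5G09570 (1.11) and NDB2 (1.10), all of the mitochondrial stress list, were higher in light, as was AT2G04070 (1.44). The call of AT5G09570 was lost without any single one of the 6 csn5-labelled arrays, and that of NDB2 without the third light array (0.79) or the third dark array (0.88). The count of 5 in csn4 was 2 without the first light array or the third dark array and 3 without the first dark array. The count of 1 in csn3 was 5 without the third dark array, and 2 without the second dark array or the third light array.

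Markers of other tissues moved with genotype too. The summed signal of 5 root markers out of 9 was 4733 to 8227 in csn arrays in light, against 17451 to 18219 in WT, and 4699 to 8953 in csn arrays in darkness, against 24666 to 27348 in WT. Among them PYK10, a root beta-glucosidase, fell by 1.56 in light and fell by 1.84 in darkness. The summed signal of 8 green tissue markers out of 14 was 37182 to 58826 in csn arrays in light, against 125416 to 137736 in WT, and 32564 to 59391 in csn arrays in darkness, against 33770 to 38140 in WT. These sums hide markers that moved apart. For the csn mean 6 of the 8 fell and 0 rose in light, and 3 rose and 1 fell in darkness. LHCB4.3 was higher in csn3 than in WT in light (2131.5 against 927.3). In csn3 in darkness the log2 difference was -3.22 for LHCB4.2 and 2.65 for RCA. GSTU20, GSTU18, TAPX and TRXF2 shared with the green tissue sum a high value in WT in light. No marker was listed at 0 in any group, and the part of tissue composition in the members' values was not tested.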

How the data were processed

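The authors deposited 1 signal intensity per probe set and array on a linear scale, and per the submitters' processing notes MAS5 was the tool, whose version, scaling target and filters are not given in the sources used here. All 24 columns were matched to a sample by identifier and 0 columns were left out. Scaling brought the 2% trimmed mean of every array to 500, and log2(signal + 50) was analysed. Of 22810 probe sets 64 controls were left out, and a probe set entered the tests when 3 or more arrays reached a signal of 100. One limma fit (version 3.58.1, R 4.3.3) held all 24 arrays, with a mean for each of the 8 groups and an intensity trend in eBayes, each contrast had its p-values adjusted by the Benjamini-Hochberg method, and the code was tested on simulated data. The number of arrays limits the precision.

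The members and the gene lists were chosen with earlier results of these data known. The text names the 3 members, up to 6 genes of each list by adjusted p of the csn mean in each condition, the measured tau genes and the 5 genes most alike to each member. Genes of other comparisons, neighbours and genes beyond this rule were named after their values were seen. Gene names came from the platform table, and a TAIR10.1 gene table updated the symbols and gave the neighbours, with no coordinates printed. Of the probe sets, 13513 were listed with 1 gene, and 13436 of these matched. Sequences were not used here. Alternatives were quantile normalization, an offset of 16, no filter, the compared groups alone, a replicate block, each array left out and, added after seeing the data, 2 settings for the GAPDH ratio. Leaving out the arrays of a high ratio keeps no csn4 array in darkness. It keeps only the third array of csn3 in darkness and of csn4 in light.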

Additional observations from a re-analysis of the deposited data

Results flagged for a closer look

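The light effect of 2 members ran in opposite directions in a mutant and in WT, in that every light array lay on one side of the dark mean in the mutant and on the other side in WT. This difference was not tested. For GSTU25 the log2 light effect in csn3 minus that in WT was 1.71, and that in csn5-labelled seedlings minus that in WT was 1.98. For AT2G21640 the value in csn4 minus that in WT was 0.96.

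By the interaction term of the limma fit, the light effect of the csn mean differed from that of WT in 23 of the 44 other listed genes (52.3%). Over all tested probe sets 19.3% passed this contrast. All differences of light effects, here and above, use the WT arrays in light, where source label and light cannot be told apart. Given here as log2 values is the light effect of the csn mean minus that of WT. In glutathione transferases it was 2.46 for GSTU22, 1.93 for GSTU26, 1.55 for GSTU28, 1.44 for GSTF4, -2.70 for GSTU18 and -1.42 for GSTL3. In the glutathione and ascorbate cycle it was -2.60 for TAPX, -1.47 for GR and 1.03 for ATMDAR2, and for peroxide scavenging loci -2.17 for AT3G52960 and -2.46 for AT3G11630. In thioredoxins and glutaredoxins it was -3.08 for TRXF2, -2.76 for ty2, -2.22 for NTRC, -2.14 for THX, -1.53 for ATHM2, 1.75 for GRXC1 and 1.25 for GRX480. It was 1.04 for GT72B1, a glucosyltransferase. In the mitochondrial stress list it was 1.80 for AT2G41730, 1.51 for NDB2, 1.33 for AT5G51440 and 1.26 for AT5G09570. Of these, GSTF4, ATMDAR2, GRX480, GT72B1, AT5G09570 and AT5G51440 lost the call under at least 1 alternative.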

How the results depend on the processing

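No called value changed sign under the alternatives run, and 167 of 225 results were kept under every one. A listed gene was kept when it stayed on its side of the threshold. A member was kept when it moved by less than its spread, and a count of genes when it stayed within a fixed ratio. Without the 8 arrays of a GAPDH ratio above 10 the csn mean of GSTU20 in darkness became 0.25 and that of AT2G21640 2.63, on the log2 scale, and an offset of 16 made AT2G21640 in light 3.28. Leaving out 1 array at a time gave -4.28 to -4.10 for GSTU20 in light and -0.54 to -0.30 in darkness, 0.02 to 0.41 for GSTU25 in light and -1.65 to -1.47 in darkness, and 2.95 to 3.12 for AT2G21640 in light and 2.28 to 2.43 in darkness. For light against darkness the count of listed genes, markers included, in csn3 was 1, and 2 under quantile normalization, an offset of 16 and both GAPDH settings. In csn4 it was 5, and 1 with the compared groups alone. With 1 array left out the counts were 1 to 5 in csn3, 2 to 7 in csn4 and 3 to 4 in csn5-labelled seedlings. For the csn mean the redox lists gave 22 calls in light (20 to 23) and 20 in darkness (19 to 27) over all alternatives. The replicate block left GSTU20 in light at -4.19 and moved the redox count in darkness to 21. The main fit did not pair samples by replicate number. After removal of the group means, the correlations of same-numbered arrays ran from -0.25 to 0.24. In 0 of 10 comparisons was every correlation above 0.1. With 3 arrays per group this check cannot show whether replicates were grown or processed as sets. The replicate block and these correlations use the number 3 assigned to the csn3 array in darkness whose title repeats replicate 1. The cause of these shifts was not tested. Signals near or below 100, as for GSTU20 and GSTU25 in dark mutants, limit the size of their differences. The same holds for listed genes dim in WT in light, such as UGT73C1, AT2G04050, AT2G04070, NDB4, GRX480 and GSTU28.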
